A study of Homo sapiens with 6 samples.

Results

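The genes described here are the AP-1 subunits FOS, FOSB, FOSL1, FOSL2, JUN, JUNB and JUND with the related factor ATF3, and the growth-factor-induced transcription factors EGR1 and MYC. They were taken by symbol from the platform annotation, and where a gene had several probe sets the brightest on average was kept. All 10 listed symbols were annotated, among 14884 genes in all.

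AP-1 is a dimer of a FOS-family and a JUN-family protein, or of JUN proteins with each other or with ATF proteins, joined through a leucine zipper. When a growth factor activates RAS and ERK, FOS, EGR1 and JUN are transcribed within minutes as immediate-early genes, partly through serum response factor bound to CArG boxes, and their mRNAs are short-lived. FOSL1 (FRA-1) and FOSL2 (FRA-2) appear later and last longer, and FOSL1 is known as an AP-1 subunit of spreading, invasive carcinoma cells. MYC, which pairs with MAX, drives ribosome synthesis and cell growth.

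SKOV3, an established human ovarian carcinoma cell line, was grown for 11 days in McCoy's 5A medium with 15% serum in 96-well plates. The 2D group (n = 3) used attachment plates and no FP001. The 3D group (n = 3) used low-attachment plates and 0.015% (w/v) FP001, a medium additive known here by its code name. Plate and additive changed together and cannot be told apart, and all cells come from a single line. The labels do not say whether the 3 samples of a group were separate cultures, so p-values cover no more than the spread among these arrays, and that spread may be technical only. In bulk RNA, fewer expressing cells and less RNA per cell cannot be told apart.

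Values are the authors' log2 RMA values, and changes are 3D minus 2D on that scale with a standard error (SE) from limma. A gene passed at a Benjamini-Hochberg adjusted p under 0.05 over all 14884 genes. Array medians lay between 4.30 and 4.37. Arrays of the 2D group correlated at 0.991 to 0.993 across genes, and 3D replicate 1 correlated with the other 3D arrays at 0.988, against 0.995 between those. Of 8 measured markers of epithelium and of this lineage, PAX8 read 10.13 to 10.44 on every array, and 4 (KRT19, EPCAM, CLDN3 and CLDN4) rose. KRT8, KRT18 and CLDN7 did not pass (limma adjusted p = 0.416, 0.117 and 0.0951). CLDN7 lay lower on every 3D array than on any 2D array, with a change of -0.39. Among markers of other cell types, 3 of 8 leukocyte genes were measured, with array means of 5.35 to 5.49 in 2D and 5.89 to 6.40 in 3D. CD68, also a lysosomal protein of other cells, read 8.86 to 9.76, CD14 read 3.49 to 4.31, and LYZ read 3.12 to 3.33 in 2D and 4.40 to 5.70 in 3D. Of 8 fibroblast and endothelial genes 3 were measured, with array means of 4.17 to 4.24 in 2D and 4.44 to 4.77 in 3D. PECAM1, CD68 and LYZ were higher in 3D, and the part of these markers in the results below was not tested.

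The start sites of several of these genes carry short motifs to which the factors themselves, or serum response factor, are known to bind. RefSeq (GRCh38.p14) start-site windows, 250 bases before to 50 after, were at hand for 8 of the 10 genes (9 windows, with 2 for ATF3), and none for FOSL1 or MYC. Both strands were searched for 7 motifs: TGACTCA (AP-1), TGACGTCA (cyclic AMP response element), TGACATCA (a variant known from JUN), the CArG box by its name, GCGTGGGCG and GCGGGGGCG (EGR), and CACGTG (E-box). None of these overlapped another at a matched position. The stretches shown are those with a match, from AP-1 genes, ATF3 and EGR1. Motif letters are in capitals, each line runs 5′ to 3′ on the gene's strand, and positions count from the start site.
JUN (chr1:58784092-58784129, minus strand, -82 to -45): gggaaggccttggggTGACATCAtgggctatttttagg
ATF3, upstream window (chr1:212565269-212565306, plus strand, -138 to -101): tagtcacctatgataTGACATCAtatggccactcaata
JUND (chr19:18281800-18281837, minus strand, -215 to -178): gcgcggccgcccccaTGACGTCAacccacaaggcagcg
FOSL2 (chr2:28392853-28392877, plus strand, -5 to 20): ccattgtagTGACTCAtctcgggca
EGR1 (chr5:138465359-138465420, plus strand, -120 to -59): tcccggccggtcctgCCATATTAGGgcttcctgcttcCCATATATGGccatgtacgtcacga

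JUN and the upstream window of ATF3 share the TGACATCA variant, and JUND has the cyclic AMP response element. FOSL2 has the canonical AP-1 heptamer just inside its transcript, and EGR1 has 2 CArG boxes within its proximal promoter. Over all 35116 windows of the table, TGACATCA occurred in 2.61%, TGACGTCA in 1.85%, TGACTCA in 4.95% and a CArG box in 1.29%. The EGR motifs (0.795% and 5.07% of all windows) and the E-box (7.26%) were in none of the 9 windows. The windows of FOS, FOSB and JUNB and the other ATF3 window held none of the 7 motifs. Bases more than 250 before a start site were not searched. These are matches of letters, not measured binding.

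The 10 genes did not move together. FOSL2, FOSL1 and MYC fell, by 2.44-fold, 2.02-fold and 1.96-fold, and all 3 stayed past the threshold whichever array was left out. JUN lay lower in 3D and FOS and EGR1 lay mostly higher, but none of these passed. JUNB, JUND, FOSB and ATF3 gave small changes that did not pass. By count 3 of 10 fell, against 4.77% of all genes that fell, and 0 of 10 rose (limma), against 5.23% of all genes; at an unadjusted p under 0.05 there were 2 higher and 4 lower. The groups did not overlap for 4 of 10 genes, all lower in 3D, against 29.2% of all genes. The median change of the 10 was -0.19, and that of all genes was -0.01.

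**Figure D1:**
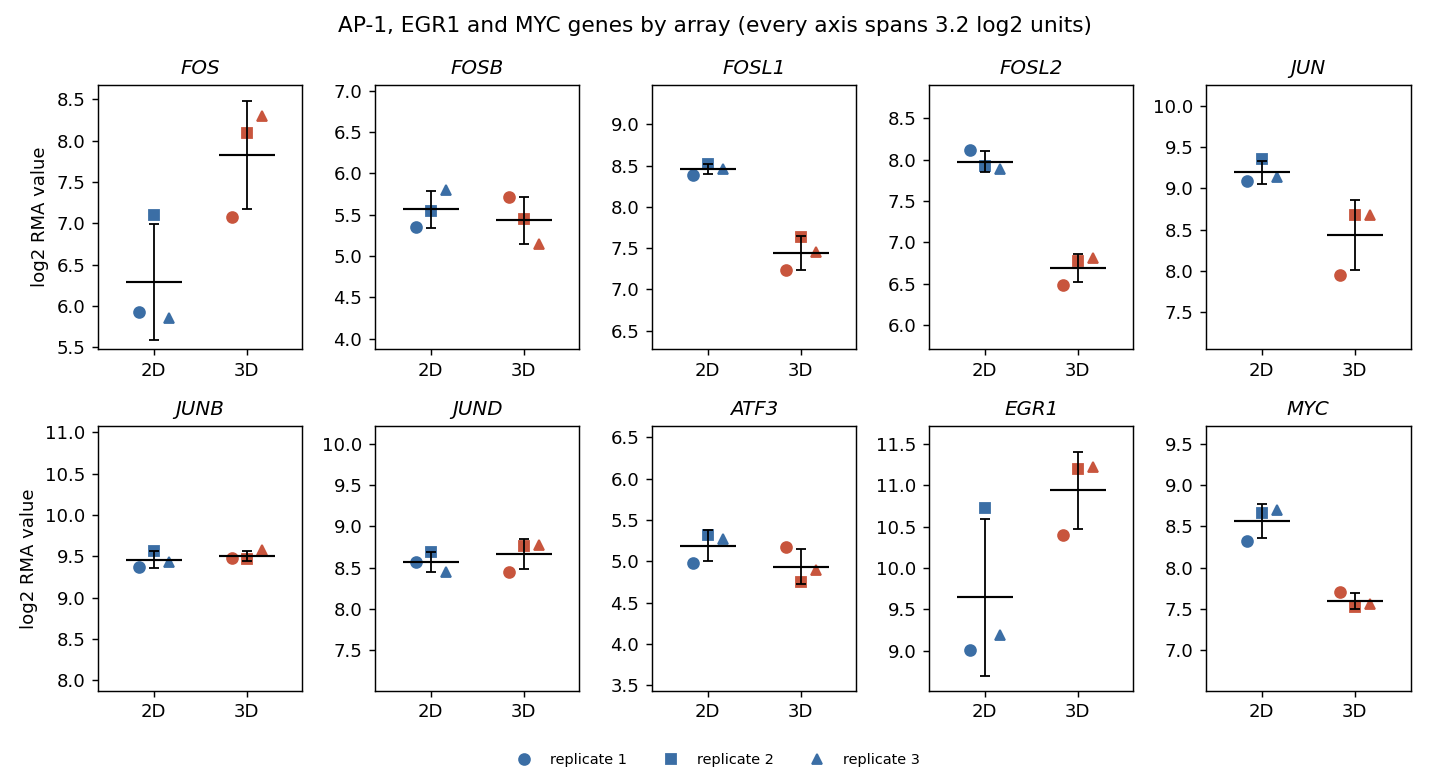
Log2 RMA value of each gene on each array, with 2D in blue and 3D in red; the marker shape gives the replicate number (circle 1, square 2, triangle 3), the horizontal line the group mean and the bars 1 SD (n = 3), and every panel spans the same number of log2 units. FOSL1, FOSL2, JUN and MYC have all 3D arrays below all 2D arrays, whereas FOS and EGR1 have 2D replicate 2 level with or above 3D replicate 1.

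**Figure D2:**
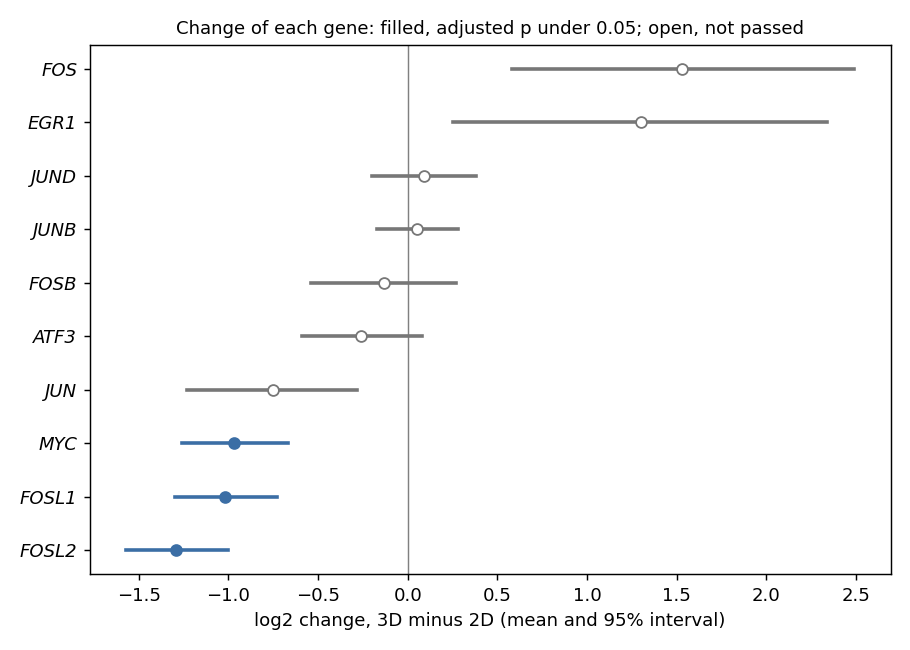
Change of each gene (log2, 3D minus 2D) with its 95% interval from limma, ordered by size; filled blue points fell at an adjusted p under 0.05 and open grey points did not pass. FOSL2, FOSL1 and MYC are the filled points, between -1.29 and -0.97.

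FOSL2, encoding the FOS-family subunit FRA-2, had the largest fall. It read 8.12, 7.92 and 7.89 in 2D and 6.49, 6.77 and 6.81 in 3D. The highest 3D array lay 1.08 below the lowest 2D array, and the range within either group was at most 0.33. The change was -1.29 ± 0.12 (SE, n = 3 per group, limma adjusted p = 0.000747). FOSL2 passed in 15 of 15 alternative settings, with changes of -1.35 to -1.19 and adjusted p-values of up to 0.0119.

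FOSL1, encoding FRA-1, a subunit tied to sustained ERK signalling and invasion, read 8.39, 8.52 and 8.46 in 2D. In 3D it read 7.23, 7.64 and 7.45. The 2D arrays lay within 0.13 of each other, and the groups were 0.75 apart at their nearest. The change was -1.02 ± 0.12 (SE, limma adjusted p = 0.00225). It passed in 15 of 15 settings (adjusted p up to 0.0146).

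MYC read 8.32, 8.66 and 8.70 in 2D and 7.70, 7.52 and 7.56 in 3D. Here 3D replicate 1, the lowest 3D array for FOSL1 and FOSL2, was the highest 3D array, and the groups were 0.62 apart. The change was -0.97 ± 0.13 (SE, limma adjusted p = 0.00332), and MYC passed in 15 of 15 settings (adjusted p up to 0.0279).

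JUN, the main transactivating JUN-family subunit and the usual partner of FOS and FRA proteins, read 9.09, 9.35 and 9.14 in 2D and 7.95, 8.68 and 8.68 in 3D. Every 3D array lay below every 2D array, by at least 0.40, but 3D replicate 1 stood 0.73 under the mean of the other 3D arrays. The change of -0.75 ± 0.20 (SE, limma adjusted p = 0.0582) did not pass. Without 3D replicate 1 it was smaller and passed (-0.51, adjusted p = 0.0312). It also passed after a repeated quantile normalization (0.0347), with a filter on dim probe sets (0.0385) and with a trended robust variance (0.0244).

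FOS, the prototype immediate-early AP-1 gene, read 5.93, 7.10 and 5.85 in 2D and 7.08, 8.09 and 8.30 in 3D. Mean levels were 6.29 ± 0.70 and 7.82 ± 0.65 (SD, n = 3). The groups overlapped by a narrow margin, with 2D replicate 2 just above 3D replicate 1. The change of 1.53 ± 0.41 (SE, limma adjusted p = 0.0568), 2.90-fold, was the largest among the 10 genes and did not pass. It passed without 2D replicate 2 (1.94, adjusted p = 0.0267) or without 3D replicate 1 (1.90, 0.0215), and missed when any other array was left out (adjusted p up to 0.177).

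EGR1, the zinc finger factor whose promoter CArG boxes are shown above, read 9.01, 10.73 and 9.19 in 2D and 10.40, 11.20 and 11.22 in 3D. Its 2D arrays spanned 1.72, the widest range in either group for any of the 10 genes, and 2D replicate 2 lay above 3D replicate 1. The change was 1.30 ± 0.45 (SE, limma adjusted p = 0.127), with a 95% interval of 0.25 to 2.34 before any correction for multiple tests. Without 2D replicate 2 the change was 1.84 and passed (adjusted p = 0.0126). FOS and EGR1 placed the same arrays high and low: 3D replicates 2 and 3 were the highest, followed by 2D replicate 2, 3D replicate 1 and then 2D replicates 1 and 3.

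**Figure D3:**
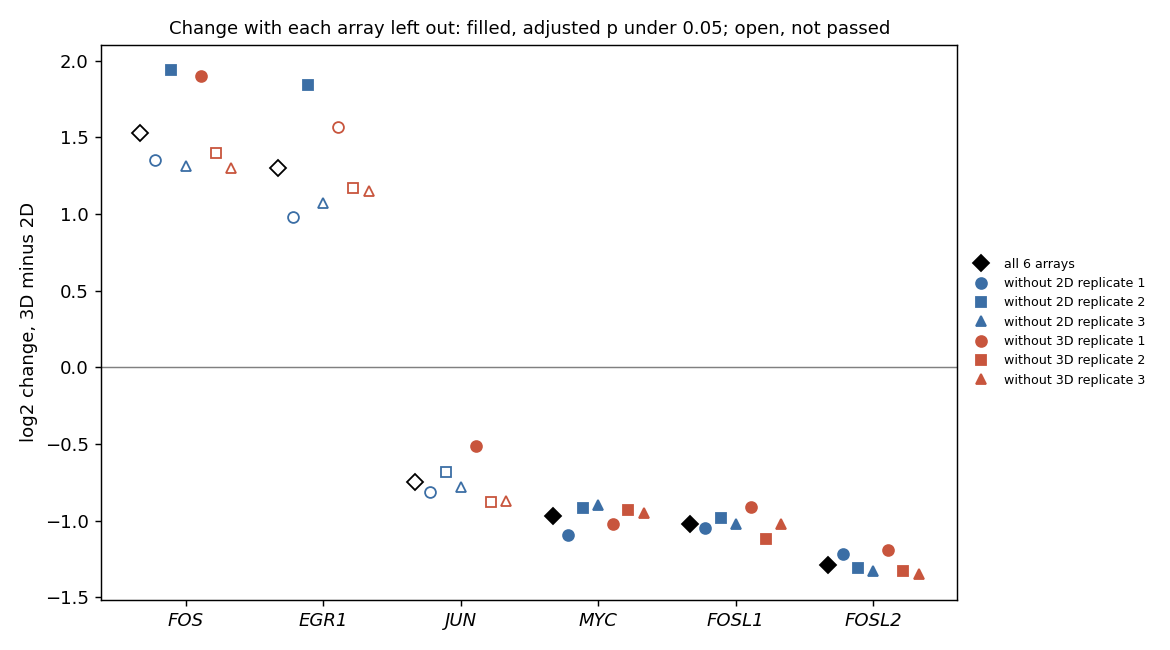
Change (log2, 3D minus 2D) of 6 genes in the fit of all 6 arrays (black diamonds) and with each array left out (blue, a 2D array; red, a 3D array; the marker shape gives its replicate number); filled symbols passed at an adjusted p under 0.05. MYC, FOSL1 and FOSL2 are filled throughout, EGR1 is filled only without 2D replicate 2, FOS only without 2D replicate 2 or 3D replicate 1, and JUN only without 3D replicate 1.

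The 2D replicate 2 array was also high for some other immediate-early genes. It was the highest 2D array for 7 of the 10 genes and for 15 of 24 other immediate-early genes measured (62.5%), against 33.1% of all genes. The median excess of those 24 genes over the other 2D arrays was 0.12, against 0.01 for all genes. FOS stood 1.21 and EGR1 1.63 above the mean of the other 2D arrays there. The ERK phosphatase gene DUSP1 stood 0.63, the growth factor gene HBEGF 0.55 and the matricellular gene CCN2 0.98 above it. These 3 had the largest excesses of that list and were named after their values were seen. IER3 and PTGS2, named in the same way, went the other way (-0.17 and -0.18). Replicate 1 was the lowest 3D array for 6 of the 10 genes, against 42.8% of all genes. Nothing in the labels sets either array apart, and a cause was not tested.

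The remaining JUN-family genes did not pass. JUNB, which can oppose JUN on some targets, read 9.37, 9.57 and 9.43 in 2D and 9.48, 9.47 and 9.58 in 3D. Its change of 0.05 ± 0.10 (SE, limma adjusted p = 0.82) had a 95% interval of -0.17 to 0.28. JUND, a broadly expressed subunit often seen in resting cells, read 8.57, 8.69 and 8.45 in 2D and 8.45, 8.76 and 8.77 in 3D. Its change was 0.09 ± 0.12 (SE, limma adjusted p = 0.735), with an interval of -0.20 to 0.38. For both genes the groups overlapped, and the intervals leave out a change as large as that of FOSL1 or FOSL2.

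FOSB, a close relative of FOS, read 5.35, 5.55 and 5.80 in 2D and 5.71, 5.45 and 5.14 in 3D, a change of -0.13 ± 0.17 (SE, limma adjusted p = 0.732; interval -0.54 to 0.27). ATF3, a stress-induced repressor that also pairs with JUN proteins, read 4.98, 5.32 and 5.27 in 2D and 5.17, 4.75 and 4.89 in 3D. Its change was -0.26 ± 0.14 (SE, limma adjusted p = 0.347; interval -0.59 to 0.08). The groups overlapped for both, and neither passed in any of 15 settings. Their mean levels lay at the 46.8 and 39.8 percentiles of all genes, and whether such levels made their changes smaller was not tested. The kept FOSB probe set lies mainly among minus-strand genes in the order of probe identifiers, although FOSB is on the plus strand.

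FOS, FOSB and EGR1 each had a second probe set, and those of FOS and EGR1 gave changes in the same direction as the kept ones. In the order of probe identifiers, both lie mainly among minus-strand genes, although FOS and EGR1 are on the plus strand. Which strand they read was not tested. The other FOS probe set read 4.96, 5.36 and 4.49 in 2D and 5.77, 5.87 and 6.11 in 3D, with no overlap and a change of 0.98 ± 0.23 (SE; adjusted p = 0.101 over all probe sets, limma). The mean of both FOS probe sets passed (1.26, adjusted p = 0.0366). The other EGR1 probe set read 6.05, 7.78 and 5.82 in 2D and 7.11, 8.14 and 8.09 in 3D (1.23 ± 0.55), again with 2D replicate 2 above 3D replicate 1. The other FOSB probe set gave -0.03 ± 0.13, and for this gene the kept probe set was the one mainly among minus-strand genes.

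The changes of 5 pairs of genes, 4 within the FOS or JUN family and MYC with EGR1, were compared inside each array, as the log2 difference of the pair relative to its 2D mean. FOSL1 minus FOS was 0.30, -0.74 and 0.44 in 2D and -2.02, -2.61 and -3.02 in 3D. The difference between FOSL1 and FOS transcripts thus shifted by -2.55, without overlap. The larger part came from FOS, whose own change of 1.53 did not pass, and the rest from FOSL1 (-1.02). JUNB minus JUN shifted by 0.81 (0.02, -0.04 and 0.03 in 2D; 1.26, 0.52 and 0.63 in 3D), and JUND minus JUN by 0.85. FOSL1 minus FOSL2 shifted by 0.27 (0.17 without 2D replicate 1), and MYC minus EGR1 by -2.26. The pairs were chosen with earlier results of these data known, and non-overlap was not counted over other pairs of genes. Each pair also holds a gene whose groups did not overlap by itself. The groups did not overlap for any of the 5 pairs, and each gave an exact two-sided permutation p of 0.1 (0.1 adjusted over the 5 pairs). That is the smallest p that 3 against 3 arrays allow, so a threshold of 0.05 could not be reached.

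The genes whose 6 values ran most like FOSL2, among 96 genes with a change within 0.25 of its own, were EMP3 (Pearson r = 0.9993), the signalling protease gene MALT1 (0.9967) and the glucosylceramide synthase gene UGCG (0.9938). For FOSL1, among 189 genes, they were the calponin gene CNN2 (0.9942), the caveolar coat gene CAVIN1 (0.9897) and UGCG (0.9881). For MYC, among 219 genes, they were the zinc finger gene GLIS2 (0.9979), ZHX2 (0.9974) and the keratin gene KRT7 (0.9874). These correlations describe 6 arrays that share the 2 culture groups, and they carry no test.

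Upstream, of 20 measured genes of the RAS to MAPK cascade (34 listed), 2 rose (10%, against 5.23% of all genes) and 1 fell (5%, against 4.77%; 4 rose and 1 fell without 3D replicate 1), with a median change of 0.02. MAP2K6, encoding the p38 activator MKK6, rose by 1.69 ± 0.17 (SE, limma adjusted p = 0.000889), from 5.60, 6.11 and 5.50 to 7.53, 7.30 and 7.44. MAP2K3, encoding the other p38 activator MKK3, rose by 0.60 ± 0.11 (adjusted p = 0.0139), and the adaptor gene SHC1 fell by 0.44 (adjusted p = 0.0234). The call of MAP2K3 was lost with 2D replicate 2 or 3 or 3D replicate 2 left out, and that of SHC1 with any array other than 3D replicate 1 left out (adjusted p up to 0.144 and 0.511 over all settings). The kinase genes MAP2K1 and MAPK3 of the ERK branch gave -0.14 ± 0.10 and 0.33 ± 0.11 and did not pass; both were picked for their place in the cascade.

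Of 11 measured genes for serum response factor, ETS factors and coactivators (14 listed), 2 fell (18.2%, against 4.77% of all genes). In this list 1 rose (9.09%, against 5.23%), and the median was -0.13. Each called gene stayed past the threshold in 15 of 15 settings. ETS1, encoding an ERK-responsive factor that acts with AP-1 on matrix protease genes, fell by 1.50 (adjusted p = 0.00025, limma), from 8.37, 8.25 and 8.49 to 6.97, 6.75 and 6.88. Its relative FLI1 fell by 0.78 (adjusted p = 0.00694), and ETV4, of the PEA3 group, rose by 0.82 ± 0.10 (SE, adjusted p = 0.00216). SRF itself, picked for its role with its value known, gave -0.17 ± 0.08 and did not pass.

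Among the EGR family, NAB corepressors and related zinc finger factors, 7 of 8 were measured. Of these, 1 rose (14.3%, against 5.23% of all genes) and 0 fell (against 4.77%, limma). At an unadjusted p under 0.05, 2 were higher and 0 lower. EGR3, a paralog of EGR1 that is also growth-factor-induced, rose by 1.16 ± 0.16 (SE, adjusted p = 0.00362) and passed in 15 of 15 settings. It read 4.67, 5.05 and 4.71 in 2D and 5.92, 5.77 and 6.23 in 3D. Unlike EGR1, its groups did not overlap. NAB2, a corepressor induced by EGR1 and picked for that role with its value known, gave 0.40 ± 0.15 (adjusted p = 0.157).

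Of 17 measured AP-1 partners and related bZIP factors (27 listed), 0 passed in either direction (limma), against 5.23% of all genes higher and 4.77% lower. At an unadjusted p under 0.05, 0 were higher and 4 lower, and the median was -0.05. Without 3D replicate 1, 3 fell. Of 15 measured partners and antagonists of MYC (18 listed), 1 rose (6.67%, against 5.23% of all genes) and 1 fell (6.67%, against 4.77%). Both shares were near those of all genes, and the median was -0.04. MLX, the MAX-like partner, rose by 0.42 ± 0.09 (SE, adjusted p = 0.0281) and MLXIP, its glucose-sensing partner, fell by 0.60 (adjusted p = 0.0151). MLX passed only without 3D replicate 1 when single arrays were left out, and MLXIP missed with 2D replicate 1 or 3D replicate 3 left out (over all settings the adjusted p reached 0.652 and 0.151). MAX, picked as the obligate partner of MYC with its value known, gave -0.04 ± 0.09.

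Other immediate-early genes moved in both directions. Of 24 measured (38 listed), 5 fell (20.8%, against 4.77% of all genes) and 3 rose (12.5%, against 5.23%), with a median of -0.27. The endothelin gene EDN1 fell by 1.90 (adjusted p = 0.000475, limma), CCN2 by 1.46, the salt-inducible kinase gene SIK1 by 1.37 and the chemokine gene CXCL8 by 0.98. The fifth was HBEGF (-0.87), and the genes that rose were GEM (0.77), the ERK phosphatase gene DUSP2 (0.66) and TIPARP (0.64), these 4 named after their values were seen. DUSP1 and IER2, named after their values were seen, gave 0.03 ± 0.21 and 0.02 ± 0.11. HBEGF lost its call without 3D replicate 3 (adjusted p up to 0.067), GEM without any array other than 2D replicate 2 and 3D replicate 1 (up to 0.144), and CCN2 as the mean of its probe sets (0.0536).

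**Figure D4:**
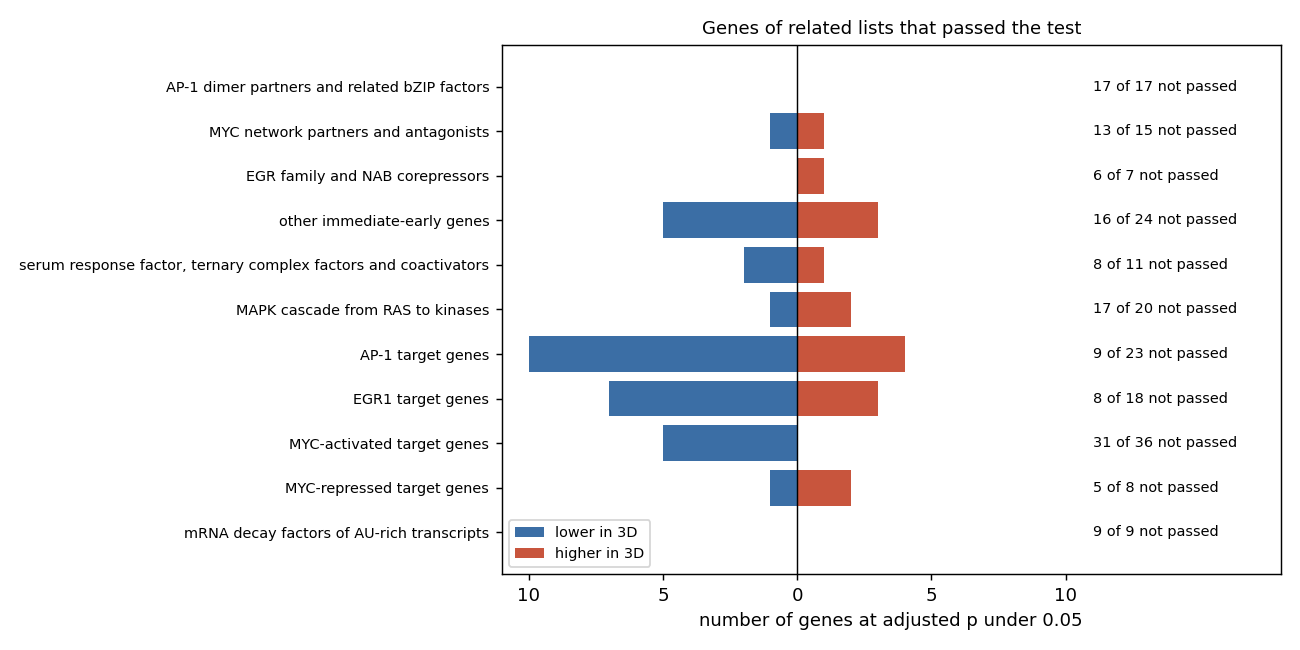
Number of genes in each related list that fell (blue, left) or rose (red, right) in 3D at an adjusted p under 0.05, with the number that did not pass at the right. AP-1 target genes have the most calls (10 lower and 4 higher of 23), and bZIP partners and mRNA decay factors have none.

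Among genes known as AP-1 targets, 23 of 39 were measured, 10 fell (43.5%, against 4.77% of all genes) and 4 rose (17.4%, against 5.23%), with a median of -0.37. The list was made with earlier results of these data known, so these shares are no test of enrichment. The matricellular gene THBS1 fell by 3.56 (adjusted p = 0.000176, limma), from 11.84, 11.81 and 11.09 to 8.35, 7.82 and 7.88. The collagenase genes MMP13 and MMP1 fell by 3.24 and 2.51. The receptor kinase gene AXL fell by 2.58, from 10.81, 10.60 and 10.63 to 8.15, 8.16 and 7.98. THBS1, MMP13, MMP1 and AXL each passed in 15 of 15 settings. The members that rose were CLCA2 (1.01), the cyclin gene CCND1 (0.59), CD44 (0.58) and HMGA2 (0.45), named after their values were seen. Without any array other than 3D replicate 1, 2 members rose and 8 or 9 fell; without that array, 5 rose and 11 fell.

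Among EGR1 targets, 18 of 26 were measured, 7 fell (38.9%, against 4.77% of all genes) and 3 rose (16.7%, against 5.23%), with a median of -0.33. Of its measured genes 5 are also on the AP-1 list, THBS1 and the angiogenic factor gene VEGFA (-2.08 ± 0.25 SE, adjusted p = 0.00235) among those that fell. The fibronectin gene FN1 fell by 1.38 and the growth factor gene PDGFA by 0.95 (adjusted p = 0.0106 and 0.0115). FN1 missed without 2D replicate 1 (0.0512), and PDGFA without 3D replicate 3 (0.0517 at most over all settings). The risers, named after their values were seen, were CCND1, CD44 and the heparanase gene HPSE (0.66), and CD44 and HPSE lost their calls without any array other than 3D replicate 1. Without 3D replicate 3, 4 members fell, and 1 rose when any array other than 3D replicate 1 was left out. Many AP-1 and EGR1 targets are also known targets of other factors, so these counts do not assign a change to either. The EGR1 list, too, was made with earlier results known, and its shares are no test of enrichment.

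Of 36 measured genes activated by MYC (61 listed), 11 were lower and 2 higher by an unadjusted p under 0.05 (limma), with a median of -0.12. After adjustment 0 rose (against 5.23% of all genes) and 5 fell (13.9%, against 4.77%). They were the mitochondrial serine enzyme gene SHMT2 (-0.97 ± 0.22 SE, adjusted p = 0.0304), the nucleolar genes NOP16 (-0.53 ± 0.11) and DDX21 (-0.50 ± 0.11), the hexokinase gene HK2 (-0.49 ± 0.11) and PUS7 (-0.45 ± 0.09, named after its value was seen). With single arrays left out the count was 3, 1 and 0 for 2D replicates 1, 2 and 3, and 4, 0 and 0 for 3D replicates 1, 2 and 3. PUS7 gave -0.10 with its other probe set (adjusted p = 0.84). The classic targets NCL, ODC1 and FBL, picked as such, gave -0.04 ± 0.09, 0.12 ± 0.10 and 0.00 ± 0.09. Of 8 measured genes repressed by MYC (18 listed), LTBP1, a TGF-beta binding protein gene (0.86 ± 0.10), and CCND1 rose, and the stress gene NDRG1 fell by 0.69 (median -0.25). By count 2 rose (25%, against 5.23% of all genes) and 1 fell (12.5%, against 4.77%). NDRG1 and LTBP1 passed in 15 of 15 settings. Without 3D replicate 1, 3 of these 8 fell.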

How the data were processed

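Expression was measured in 6 SKOV3 samples, 1 array each, from 100 ng of total RNA. The authors deposited log2 values made with RMA, per the submitters' processing notes. RMA corrects background, equalises array distributions and summarises probe sets. No version of it, probe grouping or filter is given in the sources used here. That values are log2 was read from their range. The probe annotation is for a Human Gene ST array, but a 3′ IVT labelling kit is named in the labels' protocol, which was not resolved. The array number limits the precision.

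Of 53617 probe sets 16098 carried 1 symbol, 0 several and 37519 none. All 16098 gene identifiers matched RefSeq (GRCh38.p14), giving 14884 genes. Groups were fitted with limma 3.58.1 in R 4.3.3, group alone, two-sided. In simulated data with 200 changed genes and independent noise, the fit recovered 34.5% of 1.5-fold and 97.5% of 2-fold changes. These shares average over genes, whose median SE in the real fit was 0.12. FOS and EGR1 had SEs of 0.41 and 0.45, so the shares do not hold for them, and changes of 2.9-fold and 2.45-fold did not pass. A change that did not pass, if small or in a gene with a wide spread, can therefore be a real one that was missed. The within-array differences of the 5 gene pairs were tested by exact permutation over 20 splits of the arrays.

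The 10 genes, the 11 related lists and the tests were chosen with earlier results of these data known. Named genes were all members, up to 4 passing genes of each list by absolute change, the 3 genes most correlated with FOSL2, FOSL1 and MYC, and those marked as named after their values were seen or picked for their role. The 15 alternatives were a repeated quantile normalization, median centring, leaving out dim probe sets, a gene's mean or most variable probe set, all probe sets singly, a trended robust variance, a replicate block, a test against 1.2-fold and leaving out each array.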

Additional observations from a re-analysis of the deposited data

How the results depend on the processing

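The 3 calls among the 10 genes (FOSL2, FOSL1 and MYC lower) held in all 15 alternatives, and the count of members that fell was 3 or 4, with JUN as the addition; without single arrays it was also 3 to 4. The count of members that rose was 0 over all arrays, and 1 (FOS) after a repeated quantile normalization, with the filter on dim probe sets, with the mean of all probe sets and with a trended robust variance. Without single arrays it ran from 0 to 2 (2 without 2D replicate 2, FOS and EGR1; 1 without 3D replicate 1, FOS). Changed genes numbered 1488 over all arrays, 592 in the test against a 1.2-fold limit and 760 with the replicate block, and ran from 775 to 1899 without single arrays. Deviations of same-numbered 2D and 3D arrays correlated at -0.279, -0.057 and -0.183. The labels do not say whether same-numbered samples were paired, and so few correlations cannot settle it. The block changed no member's call. All 5 within-array shifts kept their sign. Of 330 recomputed list counts 261 stayed within 1.5 times the count over all arrays, and 69 moved further. The 261 include counts of 0 that stayed 0, so they overstate how stable the larger counts were. No array carries a detection call, so depth below background could not be judged.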

Other observations

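The short life of FOS, JUN and MYC mRNAs depends on AU-rich elements and the proteins that read them. Of 9 measured genes for such decay and stabilising factors (21 listed), 0 passed in either direction (limma), against 5.23% of all genes higher and 4.77% lower. By an unadjusted p under 0.05, 0 were higher and 1 lower, and the median was -0.10. The largest change was that of the mRNA-binding protein gene IGF2BP2 (-0.45 ± 0.14 SE, adjusted p = 0.098), named after its value was seen. The decay factor gene KHSRP, picked for its role with its value known, gave -0.17 ± 0.09.

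FOS, FOSB and EGR1, each with 2 probe sets, lie on the plus strand in RefSeq. Among the named neighbours of each probe set, 10 on either side in the order of probe identifiers, the kept probe sets of FOS and EGR1 had 18 of 20 and 17 of 18 plus-strand genes, all on the gene's own chromosome. The other FOS probe set had 17 of 19 minus-strand genes and the other EGR1 probe set 16 of 17. For FOSB the kept, brighter probe set was the one among minus-strand genes (16 of 17), and the other had 14 of 14 plus-strand genes and a change of -0.03. No probe coordinates were used here, and which strand these probe sets read was not tested.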
